A study of Mus musculus with 18 samples.

Results

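Knockdown of Gstt1 was examined in 3 mouse liver-metastasis lines whose NT control libraries held Gstt1 above 20 CPM (counts scaled to a fixed total of reads). Lines G45-2, 6-3 and 13-2 met this rule and gave 8 of the 18 RNA-seq libraries in the series. The lines were thus chosen by the measured Gstt1 level of their controls, and Gstt1 is described and not tested. The 8 libraries were 3 NT controls, 3 with Gstt1 shRNA 1 (1 in each line) and 2 with Gstt1 shRNA 2 (in G45-2 and 6-3).

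The lines are pancreatic ductal adenocarcinoma (PDAC) cells grown in 2D culture from spontaneous metastases of genetically engineered mice. By the genotype labels G45-2 and 6-3 carry floxed Sirt6 (SIRT6F/F), and 13-2 carries no floxed Sirt6 allele. The labels of all 3 lines also give p48+ and Tp53F/+, and a line's control and knockdowns have the same genotype. The p48 (Ptf1a) locus drives recombination in the pancreas. Cells were infected with lentivirus carrying a non-targeting hairpin or 1 of the 2 Gstt1 hairpins, kept in puromycin for 48 h, and collected for RNA once they had been split. No label states that the libraries of a line came from separate infections. The p-values therefore rest on the variation among these samples, part of which may be technical.

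Gstt1 encodes a theta-class glutathione S-transferase, which joins glutathione to electrophilic compounds. Proliferating cells raise a large set of S-phase and mitotic transcripts, many of which are held down in resting cells by repressor complexes at their promoters. PDAC cells also vary in epithelial character and secrete chemokines and growth factors that draw in and feed neutrophils.

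Depth was 12015808 to 18799837 reads per library, at which 3 reads equal 0.160 to 0.250 CPM. Between 2.93% and 5.30% of a library came from its 10 top genes. The ductal keratins Krt8 and Krt18 were at 346 CPM or more in all 8 libraries. Other ductal markers were not uniform. Krt7 was at 203 to 1985 CPM in controls and 2.98 to 130 CPM in knockdowns, and Epcam was near 0 in some knockdowns. Summed endothelial markers were at 1.27 to 1.95 CPM in controls and 0.106 to 2.86 CPM in knockdowns, with 5 of 6 below 1 CPM throughout. Summed macrophage and leukocyte markers (5 of 8 in the table) were at 7.81 to 16.6 and 2.75 to 15.3 CPM, of which Cd68 was the largest part. Of the hepatocyte markers 3 of 8 were in the table, summing to at most 1.64 CPM except in 6-3 shRNA 1 (40.4 CPM, mostly Apoa1 at 34.4 CPM). The 2 acinar markers in the table, of 7, summed to 2.59 to 4.77 CPM in controls and 2.46 to 14.0 CPM in knockdowns. The fibroblast markers (7 of 9 in the table) ranged from 5.93 to 582 CPM in controls and 4.16 to 1331 CPM in knockdowns, with Dcn and Lum below 1 CPM in every library and Col3a1 the largest part in G45-2. Their part in the results was not tested.

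The library labelled 13-2 shRNA 1 stood apart from its control. Cdkn2a, which encodes the cell cycle inhibitors p16 and p19Arf, was at 110 CPM in the 13-2 control and 0.0706 CPM in that library. Its neighbour Cdkn2b was at 211 and 0.0706 CPM. Trp53 was at 13.4 and 152 CPM, and the p53 target Cdkn1a at 16.4 and 628 CPM. Across 12439 genes that reached 5 CPM in any library of the series, the log2(CPM + 1) values of the library labelled 13-2 shRNA 1 correlated at 0.86 with its own control and at 0.96 with the shRNA 2 library of the lung line 42-3. Whether the label of this library is right could not be settled from the files used here. Every 13-2 difference and every count over 5 of 5 knockdown libraries rests on that label. The other 4 knockdown libraries were most like the other hairpin of their own line (0.93 in 6-3 and 0.98 in G45-2). With their own control they correlated at 0.901 and 0.908 in G45-2 (shRNA 1, shRNA 2) and 0.921 and 0.895 in 6-3. With an NT control of the lung line 42-3 the values were nearly as high, at 0.900 and 0.9045 in G45-2 and 0.899 and 0.893 in 6-3.

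In G45-2 the Y-linked Kdm5d was at 29.8 CPM in the control, 0 with shRNA 1 and 0.0621 CPM with shRNA 2, while Ddx3y, Eif2s3y and Uty were present in all 3 libraries. In 6-3 none of these transcripts was near 0 in 1 library and present in another. Genes at 10 CPM or more in the control and below 0.5 CPM in every knockdown numbered 99 in 13-2, 45 in G45-2 and 10 in 6-3. This rule was easier to meet in 13-2, which had 1 knockdown library against 2 in G45-2 and in 6-3. Results are also given without 13-2, because the label of its knockdown library could not be settled. Wherever 2 values are given for 13-2, the second is that of the library labelled shRNA 1. G45-2 carried 1 library code throughout. In 6-3 and 13-2 the controls had another code than the knockdowns, so that code and knockdown cannot be told apart there.

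**Figure D1:**
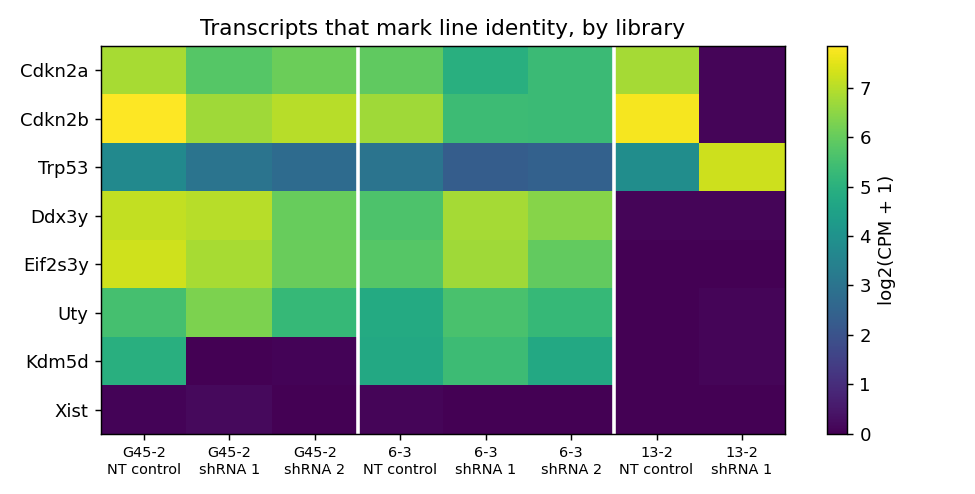
Level of 8 identity transcripts (rows) in the 8 libraries (columns, white lines between cell lines), coloured by log2(CPM + 1). Cdkn2a and Cdkn2b were present in 7 libraries and near 0 in the library labelled 13-2 shRNA 1, where Trp53 was highest, and Kdm5d was near 0 in both G45-2 knockdowns.

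Gstt1 (ENSMUSG00000001663) was lower than its own control in all 5 knockdown libraries, to very different extents. In G45-2 it was at 43.8 CPM in the control, 23.9 CPM with shRNA 1 and 5.15 CPM with shRNA 2. In 6-3 it was at 25.4, 19.2 and 0.250 CPM. In 13-2 it was at 24.3 CPM in the control and 0.283 CPM in the library labelled shRNA 1. The share of control was thus 75.4% in 6-3 shRNA 1, 54.5% in G45-2 shRNA 1, 11.8% in G45-2 shRNA 2, 1.16% in 13-2 and 0.982% in 6-3 shRNA 2. The exact 95% counting interval, which covers counting error only, was 63.8% to 88.8% for 6-3 shRNA 1 and 0.202% to 2.89% for 6-3 shRNA 2, which held 3 reads. Knockdown by shRNA 1 was therefore partial in G45-2 and 6-3, and in both the shRNA 2 library held less Gstt1 than the shRNA 1 library. The small share in 13-2 rests on the library whose label could not be settled.

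The paralogs followed in part. Gstt3, another theta-class transferase, was at 43.9, 8.14 and 4.78 CPM in G45-2 (control, shRNA 1, shRNA 2), at 7.43, 3.50 and 0.166 CPM in 6-3, and at 22.7 and 0.283 CPM in 13-2. In G45-2 shRNA 1 it was thus at a smaller share of control (18.5%) than Gstt1. Gstt2 was at 15.0, 1.06 and 1.06 CPM in G45-2, at 2.31 and 0 CPM in 13-2, but at 0.750, 3.10 and 0.0832 CPM in 6-3. Gstt4 was at or below 0.213 CPM in every library. The sources used here do not say how the authors' counting split reads between these paralogs, which leaves their separate levels uncertain.

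**Figure D2:**
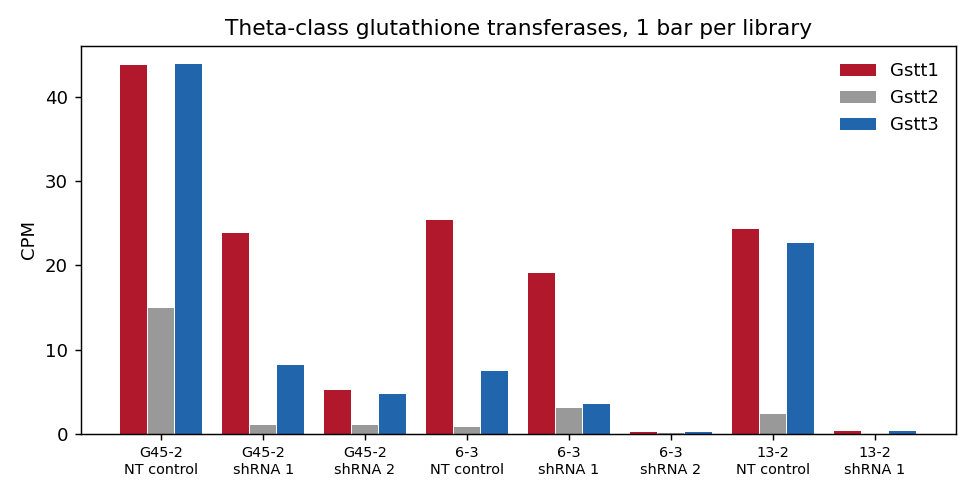
CPM (vertical axis) of Gstt1, Gstt2 and Gstt3 in each of the 8 libraries, 1 bar per gene and library and no error bars. Gstt1 was at 24.3 to 43.8 CPM in the controls and 0.250 to 23.9 CPM in the knockdowns, with the 2 highest in the shRNA 1 libraries of G45-2 and 6-3.

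Knockdown and NT control were compared across all genes with cell line as a block. Of 12206 genes tested, 92 were higher (0.754%) and 32 lower (0.262%) at a limma adjusted p under 0.05. Of the 35 mitosis and spindle genes 23 rose, and of 37 DNA replication genes 7 rose. Those that fell included the growth factor gene Csf3, the immediate early genes Fos and Ier2 and the epithelial genes Krt7, Muc1 and Prom1. All 124 had the same direction in 5 of 5 knockdown libraries, which their choice by a small p in these same libraries favours. Rises ranged from 0.95 to 3.30 on the log2(CPM + 1) scale (median 1.70) and falls from -1.56 to -6.06 (median -2.65). This scale understates the change of low genes. By edgeR on the recovered reads 53 genes passed, 45 higher and 8 lower, of which 52 were among the 124.

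The limma calls were lost under several changes of the samples or the design. The hairpins of a line share 1 control, and with the knockdowns of each line averaged limma called 0 genes (smallest adjusted p = 0.522, 1102 at an unadjusted p under 0.05). It also called 0 without the block (smallest adjusted p = 0.0541, 1575 unadjusted) and with a term for each hairpin (0.0636, 1702 unadjusted). Without 13-2 limma called 0 of 12206 genes (0.0%; smallest adjusted p = 0.0546), edgeR 0 and DESeq2 986, with 1965 genes at an unadjusted p under 0.05 in limma. In that limma fit all 124 genes had their direction and an unadjusted p under 0.05, and 123 of them were among the 986. The change of Kif11, for example, was 2.26 without 13-2 and 2.11 with it. The 124 were chosen in a fit that includes these libraries. Their direction and small p here were largely set by that choice and are no separate support. The limma count was also 0 without G45-2, without 6-3 and without any 1 of 5 libraries, which were both G45-2 knockdowns, the 6-3 control and either 13-2 library.

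Promoters of genes that rose are shown because 2 short sequence elements lay in a larger share of them than of all windows, though most did not hold both. RefSeq windows (GRCm38.p6) from 250 bases before to 50 after the start were at hand for 69 of the 92 genes that rose, 19 of the 32 that fell and 8627 of the genes tested. The CHR element TTTGAA, searched on both strands, is known as a binding element of cell cycle repressor and activator complexes. It lay in 33 of 69 windows of genes that rose (47.8%), in 1 of 19 of genes that fell (5.26%) and in 11.4% of all windows. CCAAT, also on both strands and able to share end bases with TTTGAA, lay in 48 of 69 (69.6%), 8 of 19 (42.1%) and 39.2%. Both were present in 28 of 69 (40.6%), 1 of 19 and 4.94%. The AP-1 motif TGANTCA lay in 1 of 69, 4 of 19 and 5.16%, and an NF-kB consensus motif in 1 of 69, 0 of 19 and 1.53%. A match is a run of letters and not a measured site.

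Printed are 4 genes of small p with both elements between 150 bases before and 30 after the start. Not every chromosome was considered in this choice. Each is on its own strand, 5′ to 3′, with the elements or their reverse complements in capitals. Kif11 (plus strand, chr19:37376232-37376411) encodes the kinesin that separates spindle poles. Prc1 (plus strand, chr7:80294301-80294480) encodes a microtubule bundler of the central spindle. Ckap2 (minus strand, chr8:22185790-22185969) encodes a spindle protein and Cenpf (minus strand, chr1:189688057-189688236) a kinetochore protein.
Kif11: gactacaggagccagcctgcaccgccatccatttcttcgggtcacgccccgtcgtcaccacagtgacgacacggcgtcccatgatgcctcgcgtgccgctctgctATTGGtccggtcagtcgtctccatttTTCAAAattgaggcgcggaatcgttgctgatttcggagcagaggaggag
Prc1: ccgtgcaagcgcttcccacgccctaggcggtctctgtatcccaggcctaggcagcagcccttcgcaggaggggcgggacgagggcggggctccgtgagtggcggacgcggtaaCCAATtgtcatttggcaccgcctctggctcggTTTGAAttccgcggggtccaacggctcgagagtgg
Ckap2: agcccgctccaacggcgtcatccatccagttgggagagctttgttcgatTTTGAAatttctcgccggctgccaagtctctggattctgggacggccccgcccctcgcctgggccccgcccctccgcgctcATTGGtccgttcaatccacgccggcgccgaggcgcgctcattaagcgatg
Cenpf: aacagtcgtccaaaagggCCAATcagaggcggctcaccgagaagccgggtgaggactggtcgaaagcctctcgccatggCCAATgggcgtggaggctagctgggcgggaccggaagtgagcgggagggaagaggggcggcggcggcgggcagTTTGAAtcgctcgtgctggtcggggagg
The TTTGAA element began 19 bases before the start in Kif11, 5 before in Prc1, 101 before in Ckap2 and at base 3 after it in Cenpf. Kif11 was at 43.3, 198 and 213 CPM in G45-2 (control, shRNA 1, shRNA 2), at 20.2, 110 and 98.3 CPM in 6-3 and at 33.8 and 112 CPM in 13-2. Every knockdown library lay above every control, and the log2 change was 2.11 (SE 0.18, limma adjusted p = 0.0184). Prc1 rose by 1.93 (SE 0.18), Ckap2 by 1.59 (SE 0.15) and Cenpf by 2.06 (SE 0.20), at the same adjusted p.

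The mitosis and spindle list, whose products build the spindle and divide the cell, moved most uniformly. All 35 genes were tested and 23 rose. None fell, and 12 did not pass. Of all genes tested 0.754% rose. In bulk RNA, more cells in division and more of these transcripts per dividing cell cannot be told apart. All 35 were higher in 5 of 5 knockdown libraries, against 10.5% of all genes tested. The hairpins of a line share a control, so these are at most 3 separate comparisons, 1 of them resting on the library labelled 13-2 shRNA 1. The list median was 1.87, against -0.08 for all genes tested, and by library it was 1.24 and 1.39 in G45-2 (shRNA 1, shRNA 2), 1.85 and 2.22 in 6-3, and 2.32 in 13-2. Without 13-2 the median was 1.65, and all 35 were higher in 4 of 4 knockdown libraries, against 17.7% of all genes. In G45-2, where the library code did not differ, the median was 1.32.

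Mki67, the proliferation marker Ki-67, was at 101, 318 and 301 CPM in G45-2, at 53.3, 207 and 253 CPM in 6-3 and at 29.7 and 191 CPM in 13-2. The groups did not overlap, and Mki67 rose by 2.06 (SE 0.22, limma adjusted p = 0.0184). Foxm1, a transcription factor of the G2 and M phases, went from 62.7 to 249 and 234 CPM in G45-2, from 27.7 to 212 and 208 CPM in 6-3 and from 30.4 to 141 CPM in 13-2. It rose by 2.34 (SE 0.21, adjusted p = 0.0184), and its lowest knockdown value of 141 CPM lay above its highest control value of 62.7 CPM. Anln, which organises the cleavage furrow, rose by 2.56 (SE 0.26, adjusted p = 0.0184), from 63.5 to 109 CPM in controls to 325 to 616 CPM in knockdowns. Kif20a, a kinesin of cytokinesis, rose by 2.41 (SE 0.22), Nuf2, a kinetochore subunit, by 2.43 (SE 0.27), and the mitotic kinase Plk1 by 1.89 (SE 0.20).

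The DNA replication list followed with smaller values. Of 37 genes tested 7 rose, none fell and 30 did not pass, and 31 were higher in 5 of 5 libraries. Of all genes tested 0.754% rose and 10.5% were higher in 5 of 5. The list median was 1.13 (0.75 and 0.72 in G45-2, 1.26 and 1.64 in 6-3, 1.23 in 13-2), and 1.14 without 13-2. Lig1, the ligase that joins Okazaki fragments, was at 64.7, 176 and 162 CPM in G45-2, at 40.1, 130 and 127 CPM in 6-3 and at 29.1 and 117 CPM in 13-2, without overlap between groups. It rose by 1.64 (SE 0.17, limma adjusted p = 0.0184). The polymerase subunit Pold1 (1.28, SE 0.16), the helicase subunit Mcm6 (1.24, SE 0.16) and the ribonucleotide reductase subunit Rrm1 (1.25, SE 0.19) also rose. Together the mitosis and replication lists held 30 of the 92 genes that rose.

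**Figure D3:**
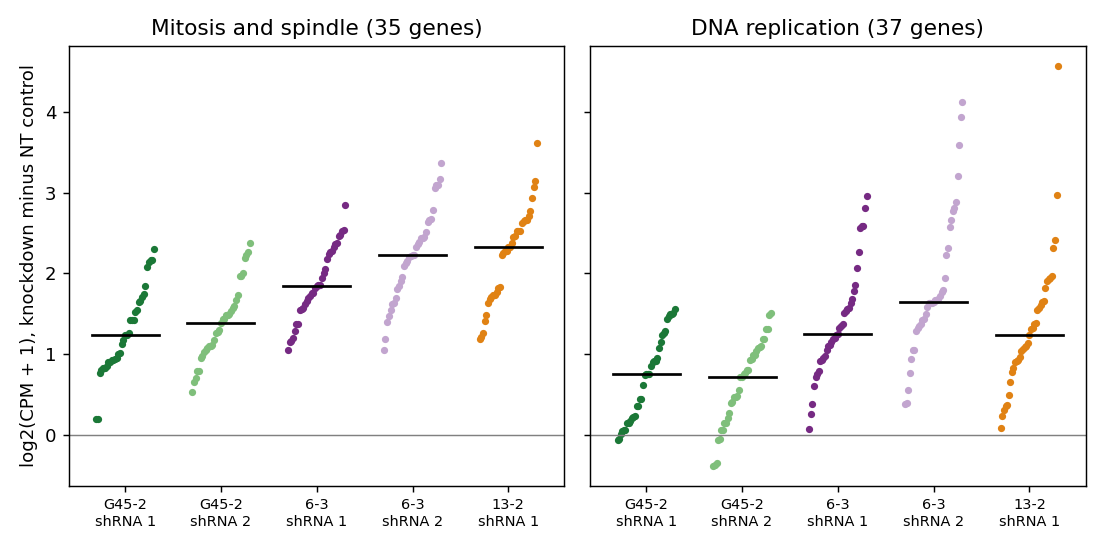
Difference in log2(CPM + 1) between each knockdown library and the NT control of its line (vertical axis) for all 35 mitosis and 37 DNA replication genes, 1 point per gene sorted within a library, with the median as a line. Every mitosis point lies above 0, and the medians run from 1.24 in G45-2 shRNA 1 to 2.32 in 13-2 shRNA 1.

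Within each line that had both hairpins, the library with less Gstt1 had the higher mitotic median. In G45-2 the hairpins left 54.5% and 11.8% of control Gstt1, with mitotic medians of 1.24 and 1.39. In 6-3 they left 75.4% and 0.982%, with medians of 1.85 and 2.22. Across lines the order differed, since 6-3 shRNA 1 had more Gstt1 and a higher median than G45-2 shRNA 2. The DNA replication medians had the opposite order in G45-2 (0.75 with shRNA 1, 0.72 with shRNA 2) and the same order in 6-3 (1.26 and 1.64). The 5 libraries allow no test of a relation to the Gstt1 level.

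Cell cycle inhibitors and pocket proteins did not share a direction. Of 9 genes tested 1 rose and none fell (0.754% and 0.262% of all genes tested). This was Rbl1, which encodes the pocket protein p107 and is itself raised in S phase (1.67, SE 0.17, limma adjusted p = 0.0184), from 38.2 to 129 and 131 CPM in G45-2, 19.2 to 63.7 and 72.9 in 6-3 and 25.6 to 70.4 in 13-2. Cdkn1a, which encodes p21, differed in sign between lines: 72.1, 33.2 and 41.7 CPM in G45-2, 135, 27.4 and 67.4 CPM in 6-3, but 16.4 and 628 CPM in 13-2. The list of p53 targets had a median of -0.02, with 1.39 in 13-2 and -0.59 to 0.03 in the other 4 libraries. The Trp53 transcript itself was 11.4 times the control in 13-2 and below control in the other 4.

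Other large rises lay outside the lists. Prr11, a proline-rich protein tied to cell cycle progression, had the largest: 11.5, 73.6 and 83.4 CPM in G45-2, 3.75, 57.8 and 108 CPM in 6-3 and 1.74 and 22.8 CPM in 13-2. It rose by 3.30 (SE 0.35, limma adjusted p = 0.0187). Abcb1a, a P-glycoprotein drug efflux pump, was at 84.2, 1209 and 570 CPM in G45-2, at 86.7, 213 and 551 CPM in 6-3 and at 19.0 and 128 CPM in 13-2. It rose by 2.65 (SE 0.43, adjusted p = 0.0483), and the groups did not overlap. Tceal8 rose by 2.91 (SE 0.34), the scaffold gene Iqgap3 by 2.46 (SE 0.23), the chromatin ATPase Atad2 by 2.31 (SE 0.36) and 4930547N16Rik by 2.37 (SE 0.36). The sources used here do not say how reads were split between Abcb1a and its close copy Abcb1b.

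Of the 32 genes that fell, 1 was in the chemokine and cytokine list (Csf3) and 2 in the acute phase and innate defence list (Nos2 and Ltf). Csf3, which encodes the granulocyte growth factor G-CSF, was at 70.9, 1.97 and 5.03 CPM in G45-2, at 380, 12.0 and 9.74 CPM in 6-3 and at 93.6 and 5.51 CPM in 13-2. All knockdowns lay below all controls, and Csf3 fell by 4.36 (SE 0.35, limma adjusted p = 0.0184). Nos2, the inducible nitric oxide synthase, was at 58.8, 2.87 and 2.17 CPM in G45-2, at 93.9, 0 and 0 CPM in 6-3 and at 80.2 and 11.4 CPM in 13-2. It fell by 4.62 (SE 0.64, adjusted p = 0.0358). Ltf, which encodes the iron-binding lactoferrin, fell by 2.96 (SE 0.37, adjusted p = 0.0274).

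The chemokine and cytokine list had its median near 0 in 13-2 and further below control in G45-2 and 6-3. Of 22 genes tested 1 fell, none rose, and 8 were lower in 5 of 5 libraries (0.262% of all genes fell and 13.2% were lower in 5 of 5). Its median was -0.99, with -1.76 and -1.70 in G45-2, -1.80 and -2.03 in 6-3 and -0.17 in 13-2, and -1.46 without 13-2. The neutrophil chemokine Cxcl5 was at 1220, 319 and 325 CPM in G45-2, at 4067, 38.8 and 14.0 CPM in 6-3 and at 1978 and 212 CPM in 13-2, a log2 change of -4.26 (SE 0.97, adjusted p = 0.115) that did not pass. Cxcl1 was at 288, 45.7 and 43.1 CPM in G45-2 and at 1463, 47.4 and 30.4 CPM in 6-3, but at 1354 and 904 CPM in 13-2. Il1a, an alarm cytokine, showed the same pattern, at 41.3, 0.213 and 0.124 CPM, at 107, 3.50 and 0.250 CPM, and at 13.4 and 9.33 CPM. Without 13-2 the changes of Cxcl1 and Il1a were -3.95 and -5.35 (limma adjusted p = 0.0816 and 0.0546), against -3.03 and -4.02 with it.

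The acute phase and innate defence list had 9 of 19 genes tested, of which 2 fell (Nos2 and Ltf), and 5 were lower in 5 of 5 libraries, against 0.262% and 13.2% of all genes tested. Its median was -2.96, from -1.17 in G45-2 shRNA 1 to -3.54 in 6-3 shRNA 2. Lcn2, which sequesters bacterial siderophores, was at 188, 10.7 and 20.4 CPM in G45-2, at 413, 19.2 and 0.0832 CPM in 6-3 and at 684 and 48.8 CPM in 13-2 (-4.68, SE 1.01, adjusted p = 0.0998). The complement gene C3 (-4.49, adjusted p = 0.115) and the lipopolysaccharide-binding gene Lbp (-4.27, adjusted p = 0.0956) did not pass either. The NF-kB subunits and feedback inhibitors, 19 genes, had no member past the threshold, a median of -0.45 and 6 members lower in 5 of 5 (13.2% of all genes were). Their member of smallest p was Tnip1, an NF-kB restraint (-0.94, adjusted p = 0.0798).

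The immediate early list, transcription factors switched on within minutes of a growth signal, had 20 genes tested. Fos and Ier2 fell, none rose, and 11 were lower in 5 of 5 libraries, where 0.262% of all genes fell and 13.2% were lower in 5 of 5. The median was -1.04, with -0.99 and -0.86 in G45-2, -1.76 and -1.72 in 6-3 and -0.50 in 13-2. Fos was at 45.3, 11.4 and 9.25 CPM in G45-2, at 1022, 64.9 and 29.96 CPM in 6-3 and at 918 and 38.2 CPM in 13-2. It fell by 3.62 (SE 0.53, limma adjusted p = 0.0365), although the G45-2 control (45.3 CPM) lay within the range of the knockdowns of the other lines. Arc, an immediate early gene outside the list, fell by 4.24 (SE 0.33, adjusted p = 0.0184), from 59.9, 195 and 287 CPM in the controls of G45-2, 6-3 and 13-2 to between 1.81 and 15.9 CPM. Junb (-1.57, adjusted p = 0.0883) and Myc (-0.88, adjusted p = 0.118) did not pass. The 16 genes of ERK feedback, also induced by growth signals, had a median of -0.06 and no member past the threshold. Their median differed between lines, with -0.82 and -0.63 in G45-2, -0.24 and -0.15 in 6-3 and 0.02 in 13-2. Without 13-2 it was -0.33.

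Epithelial genes changed unevenly. Krt7, a keratin of ductal epithelium, had the largest fall of all: 1985, 6.49 and 2.98 CPM in G45-2, 1422, 130 and 21.1 CPM in 6-3 and 203 and 7.49 CPM in 13-2 (-6.06, SE 0.90, limma adjusted p = 0.0390). Every knockdown lay below every control. Of the other simple keratins in the list, none passed. Krt18 was at 2576, 1995 and 2352 CPM in G45-2, at 4558, 3596 and 3152 CPM in 6-3 and at 1331 and 3282 CPM in 13-2 (0.11, adjusted p = 0.906), and Krt8 had a change of 0.47 (adjusted p = 0.657). Krt19 was at 1050, 873 and 482 CPM in G45-2, at 3539, 929 and 1548 CPM in 6-3 and at 59.0 and 513 CPM in 13-2 (0.03, adjusted p = 0.990). Krt20 was below control in G45-2 and 6-3 and above it in 13-2 (-0.97, adjusted p = 0.521).

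Of the 26 epithelial identity genes tested 3 fell (Krt7, Muc1 and Prom1), none rose and 9 were lower in 5 of 5 libraries (all genes tested: 0.262% fell and 13.2% were lower in 5 of 5). The list median was -1.54, and -1.48 without 13-2. Muc1, a membrane mucin, was at 25.7, 1.38 and 1.55 CPM in G45-2, at 255, 55.5 and 62.7 CPM in 6-3 and at 8.97 and 1.20 CPM in 13-2, below control in each line though the groups overlapped between lines (-2.61, SE 0.32, adjusted p = 0.0274). Prom1, the surface protein CD133, was at 22.35, 0.319 and 0 CPM in G45-2, at 3.82, 0.556 and 0 CPM in 6-3 and at 34.1 and 0.212 CPM in 13-2. Its fitted fall was 3.61 (SE 0.56, limma adjusted p = 0.0429). Prom1 reached 1 CPM only in the controls and entered the test through them, so its p-value is no separate support for a fall. Cdh1, which encodes E-cadherin, was at 175, 40.5 and 24.4 CPM in G45-2, at 1233, 871 and 869 CPM in 6-3 and at 311 and 24.4 CPM in 13-2. Its log2 difference was -0.50 in both 6-3 knockdowns and -2.09 to -3.61 in the other 3, and the change fitted over the 3 lines was -2.06 (limma adjusted p = 0.139). Epcam was at 264, 23.1 and 3.91 CPM in G45-2 but at 5.86, 31.8 and 0.0832 CPM in 6-3, and at 9.18 and 0.495 CPM in 13-2. The fibroblast marker sum was higher beside these in G45-2 (582, 760 and 1331 CPM) and was at 5.93, 118 and 4.16 CPM in 6-3 and 127 and 463 CPM in 13-2. Its part in the epithelial values was not tested.

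The EMT and mesenchymal list had 21 genes tested, none past the threshold and a median of 0.37. Loxl2, a matrix lysyl oxidase, had the smallest p of its members (3.21, SE 0.80, adjusted p = 0.138), and Cdh2, which encodes N-cadherin, was at 0.979, 0.479 and 25.5 CPM in G45-2, at 12.2, 354 and 414 CPM in 6-3 and at 43.8 and 179 CPM in 13-2. The classical PDAC list, which marks the gastrointestinal-like subtype, had 16 tested and 1 that fell, the transcription factor Onecut2 (-2.37, SE 0.33, adjusted p = 0.0358), at 303, 110 and 54.7 CPM in G45-2, 366, 36.1 and 65.8 CPM in 6-3 and 85.8 and 17.2 CPM in 13-2. Pdx1, a pancreatic transcription factor, had a change of -2.33 (adjusted p = 0.0552). The list median was -0.92, and 0.262% of all genes tested fell. Its claudin Cldn18 was at 315, 0.319 and 0.310 CPM in G45-2 but at 481, 421 and 517 CPM in 6-3, and at 18.1 and 0.0706 CPM in 13-2. Its knockdowns were thus near 0 in G45-2 and 13-2 and at or near control in 6-3 (adjusted p = 0.202). Foxa2 was at 0.230, 17.8 and 16.4 CPM in G45-2, at 138, 138 and 102 CPM in 6-3 and at 1.23 and 18.4 CPM in 13-2, above control in G45-2 and 13-2 and not in 6-3 (adjusted p = 0.217).

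Transporters and enzymes made up other large falls. The carbonic anhydrase Car12 fell by 3.94 (SE 0.61) and the mitochondrial sarcosine dehydrogenase Sardh by 3.74 (SE 0.53). Fam83f fell by 3.13 (SE 0.50). The zinc importer Slc39a4 was at 136, 53.4 and 56.9 CPM in G45-2, at 601, 119 and 112 CPM in 6-3 and at 45.6 and 3.18 CPM in 13-2 (-2.28, SE 0.36, limma adjusted p = 0.0445). No other of the 20 zinc transport and metallothionein genes passed, where 0.262% of all genes tested fell. That list had a median of -0.04.

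**Figure D4:**
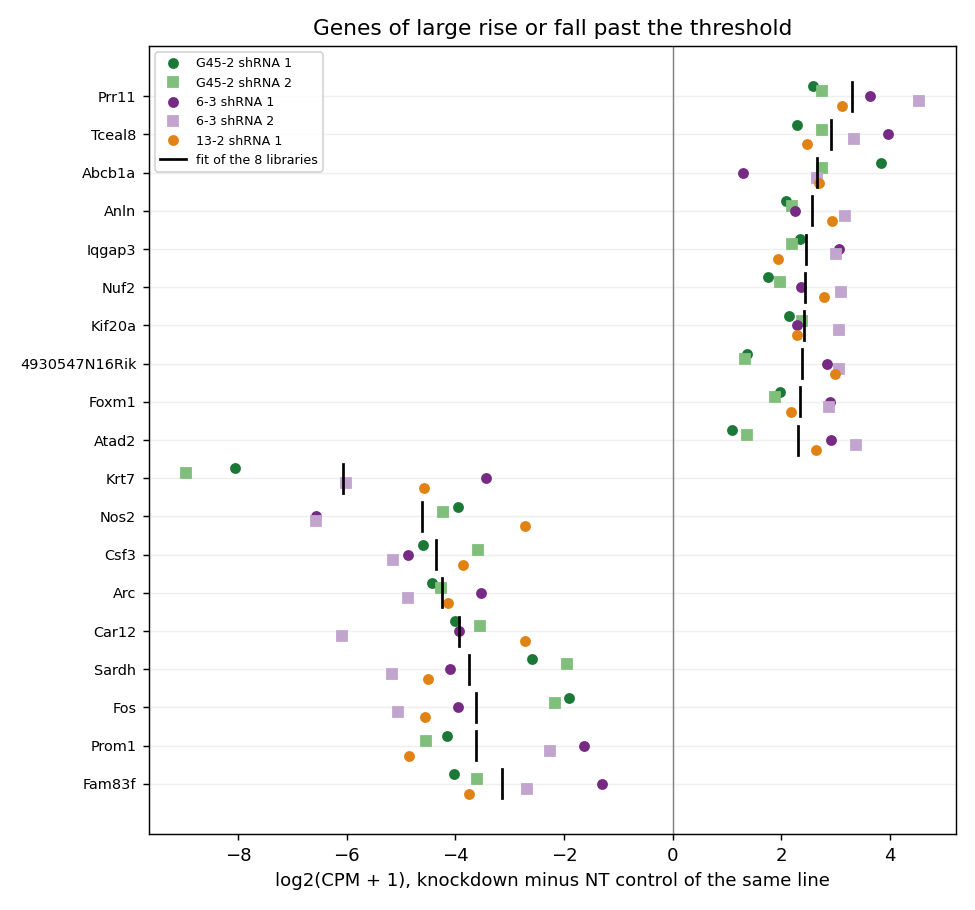
The 10 genes of largest rise and 9 genes of large fall past the threshold (rows), with the difference in log2(CPM + 1) from the own NT control on the horizontal axis. Each symbol is 1 knockdown library and the black bar the fitted change. All symbols of the first 10 genes lie above 0 and all of the other 9 below, Krt7 reaching -6.06 in the fit.

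Lists on redox and metabolism held no gene past the threshold, where 0.754% of all genes tested rose and 0.262% fell. At these shares a list of such length may well hold none. The 32 other glutathione transferase and glutathione genes had a median of -0.16, with -1.09 in 6-3 shRNA 2 and -0.14 to 0.17 in the other 4 libraries. Of them, Gstm4 (-2.83, adjusted p = 0.115) and Gstk1 (-2.10, adjusted p = 0.133) had the smallest p. The 28 NRF2 targets, which electrophiles induce, had a median of -0.24. Medians were -0.21 for 51 oxidative phosphorylation genes, -0.29 for 29 glycolysis and hypoxia genes and 0.50 for 27 cholesterol and fatty acid synthesis genes. The glycolysis median was -0.40 and -0.41 in G45-2 and -0.76 and -1.19 in 6-3 but 0.63 in 13-2. That of cholesterol and fatty acid synthesis was 0.87 and 0.77 in G45-2, 0.16 and -0.40 in 6-3 and 0.43 in 13-2.

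The remaining lists also had none past the threshold, where 0.754% of all genes tested rose and 0.262% fell. Interferon-stimulated genes had a median of 0.08 (18 tested), MHC class I presentation 0.30 (14), basal and squamous genes 0.14 (6) and basement membrane and collagen 0.11 (19). Matrix proteases and inhibitors stood at -0.41 (21), YAP targets at -0.27 (15), stress and unfolded protein response genes at 0.11 (26), polycomb genes at 0.09 (19) and cytosolic ribosomal proteins at -0.24 (37). The ribosomal median differed between lines, with -0.69 and -0.66 in G45-2, -0.34 and 0.02 in 6-3 and 0.14 in 13-2. The basement membrane gene Nid1 (2.98, SE 0.54) had a limma adjusted p of 0.0678 and Arhgap31, a GTPase-activating protein, of 0.0998 (3.50, SE 0.75). Sirt6 was at 19.0 and 15.0 CPM in the controls of the floxed lines G45-2 and 6-3 and 10.9 CPM in that of 13-2.

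**Figure D5:**
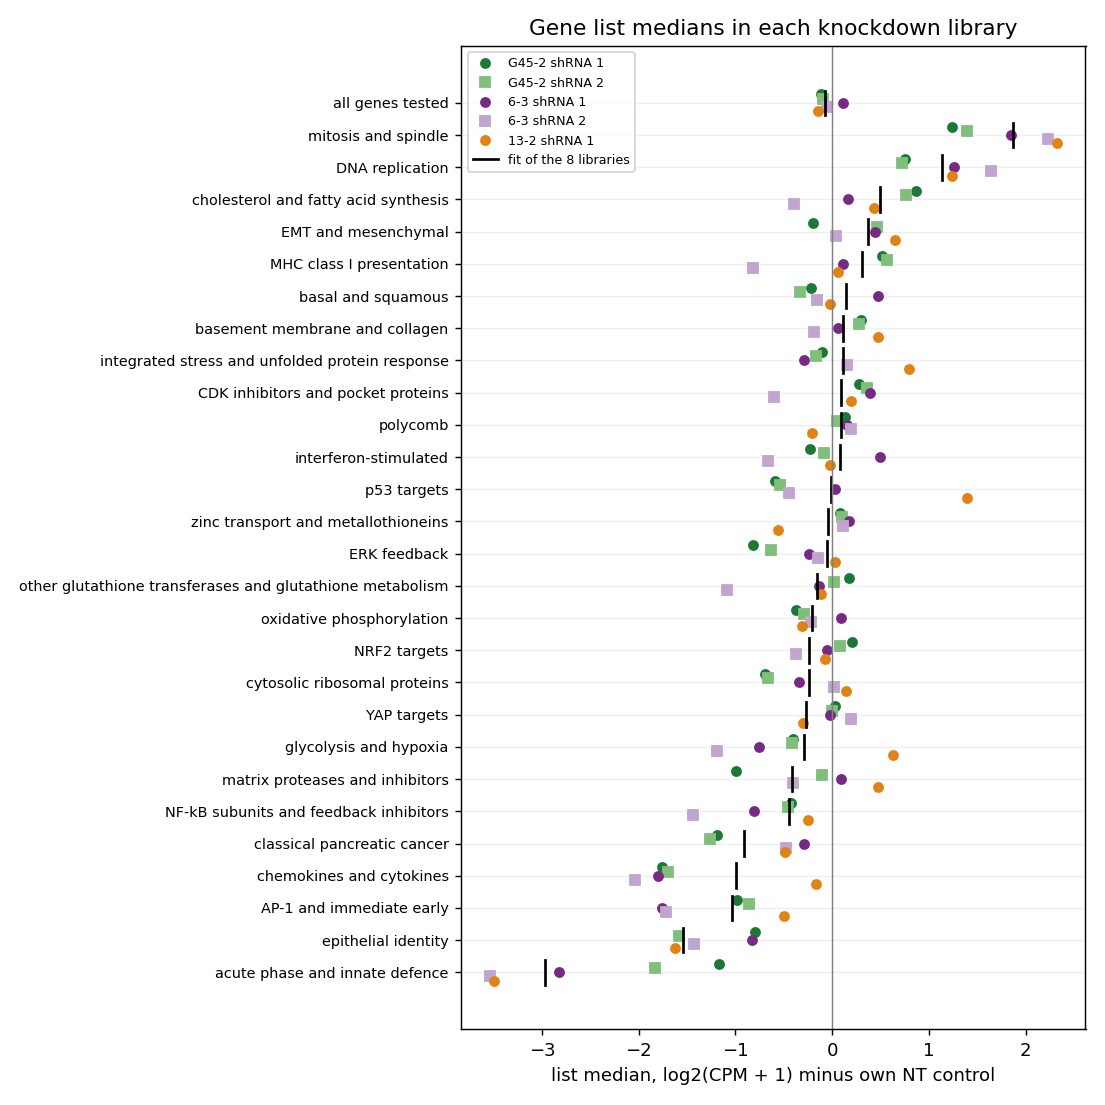
Median difference in log2(CPM + 1) from the own NT control (horizontal axis) for each gene list (rows, ordered by the fitted median), with 1 symbol per knockdown library and the fitted median as a black bar. Mitosis and DNA replication lie to the right of 0 in all 5 libraries and the acute phase, epithelial, immediate early, chemokine, classical and NF-kB lists to the left, with the chemokine median of 13-2 at -0.17 apart from the other 4.

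A count without a model gave 176 genes. Of the 12206 genes, 100 were at least 2-fold higher on the log2(CPM + 1) scale in all 5 knockdown libraries (0.819%) and 76 at least 2-fold lower (0.623%). In the mitosis list 20 of 35 genes met this rule upward, and in the acute phase list 5 of 9 downward. Without 13-2, 2349 genes (19.2%) were lower in 4 of 4 knockdown libraries, among them 14 of 22 chemokine and cytokine genes and 15 of 20 immediate early genes.

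The hairpins were compared within the same fit. No gene passed for shRNA 2 against shRNA 1 in limma (0 of 12206, 0.0%; 104 at an unadjusted p under 0.05), edgeR called 0 and DESeq2 7. The genes of smallest p included Vil1, an actin bundler of the brush border, at 26.0 and 6.39 CPM in G45-2 (shRNA 1, shRNA 2) and 46.8 and 8.32 CPM in 6-3, and Cldn6, a tight junction claudin, at 44.6 and 108 CPM and at 124 and 691 CPM. Their changes were -2.11 (SE 0.43) and 2.05 (SE 0.42), with limma adjusted p = 1.00 each. Tmigd1 (-3.20), Prr15l (-2.84), Epb4.1l4b (-1.99) and Cntln (-1.97) completed the 6 of smallest p.

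Whether the response differed from that of the other 5 culture sets of the series was tested with an interaction term over all 18 libraries. Those sets came from the lung lines 42-3 and 6-2 and the liver line 42-2. They include the 42-3 shRNA 2 library, which the library labelled 13-2 shRNA 1 resembled, so the 2 sides may not be separate. No gene passed in limma (0 of 12935, 0.0%; 1113 at an unadjusted p under 0.05), edgeR called 0 and DESeq2 198. Without the second set of the liver line 42-2, limma called 15. Prr11 had the smallest adjusted p (0.215), with a change of 3.30 here and -1.50 in the other sets. Abcb1a was at 2.65 and -3.34, Gcnt1 at 1.21 and -2.002, Il33 at 0.64 and -4.16, Eif4a2 at -0.95 and 1.02 and Gpr137b at -0.56 and 1.89, each with an adjusted p of 0.232. The median of the mitosis list was 0.52 in the other sets and that of DNA replication 0.30, against 1.87 and 1.13 here. Chemokines and cytokines had medians of -0.97 in the other sets and -0.99 here. Epithelial identity genes were at -1.31 in the other sets and -1.54 here, and classical PDAC genes at -2.26 and -0.92. Acute phase and innate defence genes were at -0.73 and -2.96, and immediate early genes at -0.37 and -1.04.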

How the data were processed

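The authors deposited 1 CPM table (counts scaled to library size) of 16383 genes, with 32 symbols repeated. RNA (1.3 µg) went into TruSeq libraries, per the labels' protocols, and reads were placed on mm9, per the submitters' processing notes. Aligner, counter and annotation were not given in the sources used here. Coordinates on mm9 are not printed. In each library 100% of values were whole multiples of 1 read within 0.01 reads, which gave the depths. Chi-square per degree of freedom between any 2 of the 8 libraries was at least 34.9, so none agreed within sampling noise.

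Genes that reached 1 CPM in 3 or more of the 8 libraries entered a two-sided limma 3.58.1 trend fit in R 4.3.3 on log2(CPM + 1), with line as a block and a Benjamini-Hochberg threshold of 0.05. The pairing comes from the cell line in the labels. Deviations from the group mean correlated at 0.13 to 0.46 between each knockdown and its control (0.26 in 13-2, 0.24 and 0.13 in G45-2). Values for pairs from different lines are not given here, so these do not check the pairing. The comparison with other sets used 12935 genes, adding those at 1 CPM in at least 4 of 18 libraries, with the culture set (a control and its knockdowns, by line and code) as block. edgeR 4.0.16 (quasi-likelihood) and DESeq2 1.42.0 on the recovered read counts were alternatives. The fit was tested on simulated data. Tables, intervals and plots used Python 3.11.15, numpy 2.4.6, pandas 2.3.3, scipy 1.17.1 and matplotlib 3.10.9.

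Lines, the 30 gene lists, the 5 marker lists and the naming rule were chosen with earlier results of these data known. Named are the 10 largest rises and 10 largest falls past the threshold, if the mean CPM was 5 or more with 1 direction in 5 of 5 libraries, up to 4 members per list by p, and 6 genes by p in each other comparison. Gstt1 and Gstt3 (by rule), Gstt2, Gstt4, Sirt6, identity and marker genes are given as values. Some items under this rule are not reported here. Ltf, Arhgap31, Mki67, Plk1, Cenpf and the list members named for not sharing a change were chosen after their values were seen, as were the 4 printed promoters and the motifs. Of a symbol's RefSeq promoters the first listed was used.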

Additional observations from a re-analysis of the deposited data

Results flagged for a closer look

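In 48 list medians and named genes, the 5 knockdown libraries were examined for 1 library far from the rest. Chance gives about 1 in 20 for independent values. The hairpins of a line share a control, so that rate need not hold here. The library labelled 13-2 shRNA 1 stood apart for the chemokine and cytokine median (-0.1677, others -2.03 to -1.70) and for the zinc transport and metallothionein median (-0.5571, others 0.08 to 0.17). 6-3 shRNA 2 stood apart for the median of CDK inhibitors and pocket proteins (-0.6033, others 0.19 to 0.39), for that of other glutathione transferases and glutathione metabolism (-1.0861, others -0.14 to 0.17) and for Kif20a (3.0567, others 2.14 to 2.38). The causes were not tested.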

How the results depend on the processing

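The count of 124 genes for knockdown went to 65 with no filter on low values, 53 by edgeR (45 higher, 8 lower) and 996 by DESeq2. It was 0 without the replicate block, with a term for each hairpin, with all 18 libraries in the fit, with line means, without each line, without shRNA 1 of G45-2 and 6-3 and in G45-2 alone. It was also 0 in 6-3 alone and by edgeR without 13-2, but 986 by DESeq2 without 13-2, these 3 being chosen after seeing the data. Leaving out 1 library gave 0 to 92 calls, 0 for 5 of 8. Leaving out libraries or lines also leaves fewer samples, and the cause of each lost call was not tested. Pseudocounts of 0.5 and 2, a mean CPM of at least 5, other scalings and robust variance kept the count within 1.5 times. For shRNA 2 against shRNA 1 DESeq2 called 7 genes, and against the other sets it called 198. Leaving out 1 culture set there gave 0 to 15 calls, the 15 without the second 42-2 set. The block changed the calls of no other comparison. The count of 176 genes at least 2-fold from control in all 5 libraries stayed within 1.5 times with other scalings, pseudocounts and filters. With fewer libraries to meet, it was 499 without G45-2, 550 without 6-3 and 323 without 13-2. Of the values of 32 named genes under each alternative, none reversed, 322 kept their side of the threshold and 606 no longer passed. Of the list medians, 757 stayed within the spread between libraries and 55 did not. Depth limits values under 0.250 CPM, which is 3 reads in the shallowest library.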
